A study of Homo sapiens with 6 samples.

Results

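The p53 response genes examined here are MDM2, CDKN1A, BAX, BBC3, GDF15, SESN1, SESN2, RRM2B and FAS, 9 of the 57209 genes in the count tables. They were listed by name as p53 targets, and each was read together with every gene that has an exon overlapping one of its exons on the other strand, 5 such genes in all. The cells were MB157, a human breast cancer line of the triple-negative subtype, which carried the nuclease Cas9 and was kept in puromycin. One group received an sgRNA against SOX9, an SRY-related transcription factor, and the other a control sgRNA. Cells of both groups were taken 4 days later and sorted for the top 50% by sgRNA expression. Each group has 3 libraries, which the labels call technical replicates, so p-values measure the spread between libraries and not between independent cultures. The series text also describes the cells as stably expressing SOX9, and no label or series text says whether the control sgRNA directs Cas9 to any site in the genome.

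The transcription factor p53 is stabilised after DNA double-strand breaks, including those made by Cas9, and switches on genes for cell cycle arrest, cell death, repair and its own inhibition. MDM2 encodes the ubiquitin ligase that marks p53 for degradation and so closes a feedback loop. CDKN1A encodes the cyclin-dependent kinase inhibitor p21, BAX and BBC3 encode proteins of mitochondrial apoptosis, and FAS encodes a death receptor.

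The sequence by which p53 recognises such genes is 2 copies of a 10-base half-site, and the match to it was looked for around the annotated starts of these genes. In RefSeq windows on GRCh38, from 250 bases before to 50 bases after a start, 8 of the 9 genes had 15 windows, and RRM2B had none. The p53 consensus site of 20 bases, 2 half-sites with no spacer, was searched on both strands with at most 3 mismatches, none of them at the core C and G of a half-site. It was found in windows of 4 genes, MDM2, FAS, SESN1 and GDF15. Of all 35116 windows, 1.12% held such a match, and 0.285% held one with at most 2 mismatches. The matches are shown because they are the sites by which these genes are usually linked to p53. Each line gives the 250 bases before a start, 5′ to 3′ on the gene's strand, with the 20-base match in capitals.
MDM2, chr12:68808767-68809016, plus strand: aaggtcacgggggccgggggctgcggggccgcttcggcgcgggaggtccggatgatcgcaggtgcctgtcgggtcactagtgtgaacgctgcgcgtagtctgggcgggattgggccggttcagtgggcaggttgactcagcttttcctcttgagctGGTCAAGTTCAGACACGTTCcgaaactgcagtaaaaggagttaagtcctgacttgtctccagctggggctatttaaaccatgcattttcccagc
FAS, chr10:88991181-88991430, plus strand: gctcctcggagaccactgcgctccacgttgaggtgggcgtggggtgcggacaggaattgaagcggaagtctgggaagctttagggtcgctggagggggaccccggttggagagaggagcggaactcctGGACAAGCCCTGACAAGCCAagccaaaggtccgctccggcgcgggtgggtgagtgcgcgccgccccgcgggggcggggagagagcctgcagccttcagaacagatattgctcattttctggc
SESN1, chr6:109008989-109009238, minus strand: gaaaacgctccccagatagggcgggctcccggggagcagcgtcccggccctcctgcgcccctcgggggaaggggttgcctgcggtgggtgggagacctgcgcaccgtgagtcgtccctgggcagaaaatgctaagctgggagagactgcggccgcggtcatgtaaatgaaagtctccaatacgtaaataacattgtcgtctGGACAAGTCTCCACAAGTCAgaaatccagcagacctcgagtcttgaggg
The MDM2 match had 2 mismatches and began 94 bases before the start. The FAS match had 2 mismatches, 122 bases before the start, and the SESN1 match had 3, 49 bases before the start. In GDF15 the match, with 3 mismatches, lay after the start (chr19:18386186-18386205, plus strand): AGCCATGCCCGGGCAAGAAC. The windows of CDKN1A, BAX, BBC3 and SESN2 held no match, which says only that these letters are not in these windows.

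Counts were low for all libraries, with totals of 776125 to 1018854 in SOX9 sgRNA libraries and 777960 to 881655 in control libraries. Counts were kept apart by strand. GAPDH, an abundant glycolytic gene, had 66 to 126 counts in SOX9 sgRNA libraries and 90 to 110 in control libraries, while ENSG00000269968 opposite it had 7249 to 8908 and 9611 to 11002. A count named for a gene is called its own count below, and a count named for a gene on the other strand its opposite count. The kit keeps strand, and a strand setting opposite to the kit's would make own and opposite counts trade places. Whether the setting is the right one was not tested, so what an own or an opposite level measures, and the order of levels, rest on it. In these bulk samples, fewer cells that express a gene and less RNA of it per cell cannot be told apart. The targeted gene, SOX9, had own counts of 37, 39 and 60 in SOX9 sgRNA libraries and 38, 52 and 44 in control libraries (log2 fold change -0.22, SE 0.26, edgeR adjusted p = 0.70).

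None of the 9 p53 response genes was called changed by its own counts after the SOX9 sgRNA. MDM2 and BBC3 passed the filter on low counts and were tested, and the other 7 had too few counts to test. The 9 genes together held 196 counts over the SOX9 sgRNA libraries and 144 over the control libraries, and MDM2 and BBC3 made up 235 of these 340. Among all 7959 genes tested, 9.01% were called in either direction at an edgeR adjusted p below 0.05, 2.99% higher and 6.02% lower. With 2 genes tested, 0 calls cannot be set apart from that background. At an unadjusted p below 0.05 the count was also 0, and by DESeq2 it was 0. The groups of MDM2 and BBC3 overlapped.

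MDM2 (ENSG00000135679, chromosome 12, 69201956 to 69239214, plus strand, GRCh37) had own counts of 23, 24 and 16 in SOX9 sgRNA libraries and 13, 18 and 16 in control libraries. As scaled CPM, the unit in which counts are set relative to library size, this was 24.8 ± 8.20 CPM against 21.1 ± 3.22 (SD, n = 3 each). SOX9 sgRNA libraries 1 and 2 were the highest of the 6 and SOX9 sgRNA library 3 the lowest. The edgeR fit put the change of own counts at 0.21 on the log2 scale (SE 0.39, adjusted p = 0.83). Its 95% interval of -0.56 to 0.99 leaves room for own counts from 0.676 to 1.99 times the control level.

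BBC3 (ENSG00000105327, chromosome 19, 47724081 to 47736023, minus strand) encodes PUMA, a BH3-only protein that triggers mitochondrial apoptosis. Its own counts were 22, 33 and 22 in SOX9 sgRNA libraries and 12, 24 and 12 in control libraries, at 125 the highest sum of the 9 genes, before MDM2 with 110, which had the higher count in 3 of the 6 libraries. The scaled level was 30.3 ± 11.2 CPM against 21.2 ± 8.01 (SD, n = 3 each). The highest control library lay above 2 of the 3 SOX9 sgRNA libraries, so the groups overlapped. On the log2 scale the change was 0.48 (SE 0.37, edgeR adjusted p = 0.51), with a 95% interval from -0.27 to 1.23. A rise beyond 2.34-fold lies outside that interval.

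**Figure D1:**
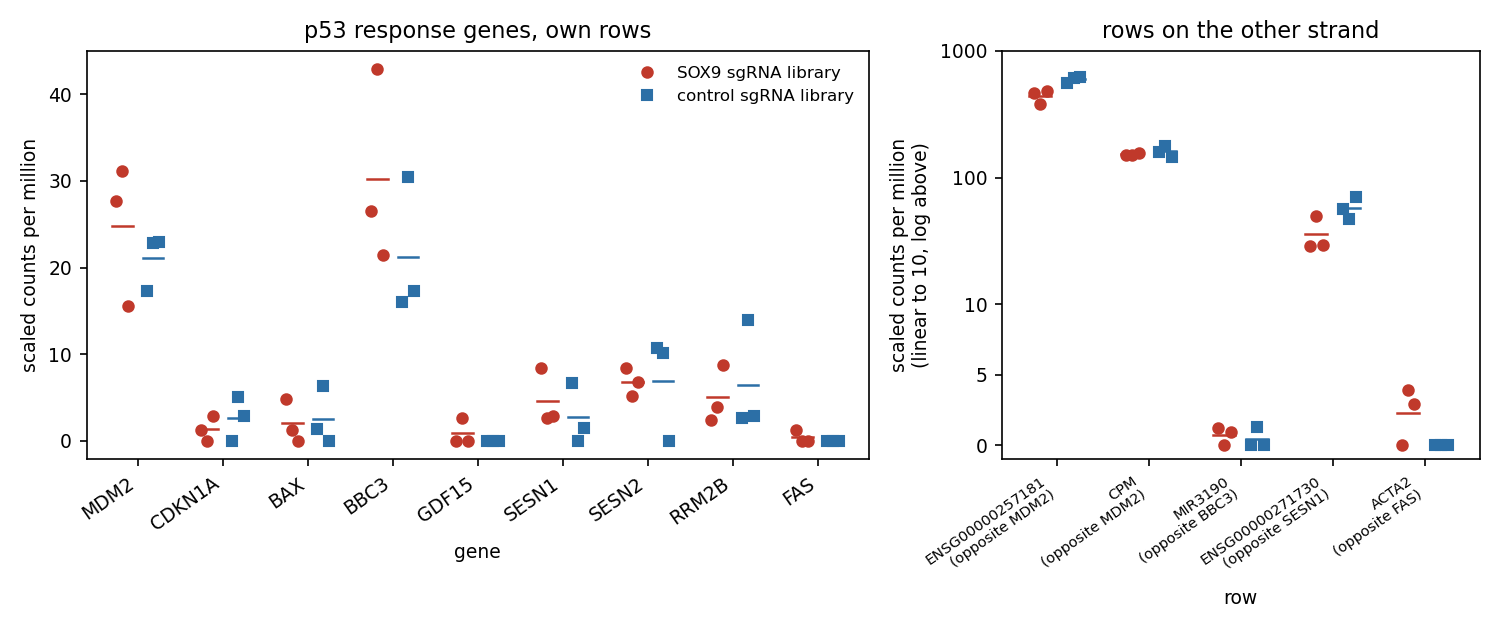
Scaled counts in each library, as CPM,, on a linear axis for the own counts of the 9 p53 response genes (left) and on an axis that is linear to 10 and logarithmic above for the 5 genes opposite them (right). Circles are SOX9 sgRNA libraries, squares are control libraries and short lines are group means (n = 3). The groups separate for ENSG00000257181 opposite MDM2, and the own counts of the 9 genes overlap between groups.

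The arrest gene CDKN1A (ENSG00000124762, chromosome 6, 36644305 to 36655116) had own counts of 1, 0 and 3 in SOX9 sgRNA libraries and 0, 4 and 2 in control libraries. Over the groups, 4 stood against 6 counts, a ratio of 0.566 at equal library size with an exact 95% counting interval from 0.118 to 2.39. Such intervals cover counting error only. Levels this near to 0 do not show whether the p21 transcript changed.

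The other death genes were as thinly counted. BAX (ENSG00000087088, chromosome 19, 49458072 to 49465055), whose product forms pores in the outer mitochondrial membrane, had own counts of 4, 1 and 0 in SOX9 sgRNA libraries and 1, 5 and 0 in control libraries, a ratio of 0.708 (0.171 to 2.78). FAS (ENSG00000026103, chromosome 10, 90750414 to 90775542) had 1 count in all, in SOX9 sgRNA library 1. No fold is given for FAS, since both groups were at or below 3 counts. Up to 3 counts over a group, the floor used here, stand for 1.14 CPM in SOX9 sgRNA libraries and 1.34 in control libraries.

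Among the stress genes, SESN1 and SESN2 encode sestrins, which restrain mTORC1 signalling. SESN1 (ENSG00000080546, chromosome 6, 109307640 to 109416022) had own counts of 7, 2 and 3 in SOX9 sgRNA libraries and 5, 0 and 1 in control libraries, a ratio of 1.70 (exact 95% counting interval 0.590 to 5.52). SESN2 (ENSG00000130766, chromosome 1, 28586038 to 28609002) had 7, 4 and 7 against 8, 8 and 0, a ratio of 0.956 (0.460 to 2.00). Control library 3 had no SESN2 count while the other 5 libraries had 4 to 8. GDF15 (ENSG00000130513, chromosome 19, 18485541 to 18499986), which encodes a secreted cytokine of stressed cells, had 2 counts, both in SOX9 sgRNA library 2, and none in control libraries, so that no fold is given.

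The repair gene RRM2B (ENSG00000048392, chromosome 8, 103216730 to 103251346) encodes the p53-inducible small subunit of ribonucleotide reductase, which supplies deoxynucleotides. Its own counts were 2, 3 and 9 in SOX9 sgRNA libraries and 2, 11 and 2 in control libraries, a ratio of 0.793 (exact 95% counting interval 0.355 to 1.76). A single library in each group held most of them. For each of the 7 genes with a ratio, the counting interval held 1.

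Levels of own counts per length set the 9 genes side by side. Whether they follow the mRNA of these genes rests on the strand setting, which was not tested. Per kb of exon and averaged over the 6 libraries, BBC3 stood highest with 8.11 scaled CPM, followed by MDM2 with 2.86 and SESN2 with 1.99. RRM2B had 1.04, BAX 0.889, SESN1 0.718, CDKN1A 0.674, GDF15 0.208 and FAS 0.0564. The median of the 19250 protein-coding genes was 0.832, so SESN1, CDKN1A, GDF15 and FAS lay below it and BAX close to it. The libraries of BBC3 (5.04 to 13.5) lay above those of MDM2 (1.94 to 3.89), and from MDM2 downwards the libraries of neighbours in this order overlapped.

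Of the 9 genes and the 5 opposite them, 1 was called, and its counts are those named for the strand opposite MDM2. Which strand the RNA came from rests on the strand setting, which was not tested. ENSG00000257181 (chromosome 12, 69235068 to 69237017, minus strand), annotated as an antisense RNA gene, had 383, 294 and 491 counts in SOX9 sgRNA libraries and 418, 478 and 434 in control libraries. Scaled to library size these were 461, 382 and 478 CPM against 558, 607 and 624, so that every SOX9 sgRNA library lay below every control library. The mean was 440.5 ± 51.2 against 596 ± 34.2 CPM (SD, n = 3 each). It fell by 0.43 on the log2 scale (SE 0.099, edgeR adjusted p = 0.0012), to 0.741 times the control level (95% interval 0.646 to 0.849). It was the only 1 of 3 tested opposite genes to be called. Among the 3279 tested genes that lie opposite a protein-coding gene with the largest overlap, 13.2% were called, 3.75% higher and 9.42% lower, and over all tested genes the groups did not overlap for 24.5%.

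The call was lost without scaling factors. The scaling factors set the groups apart, at 1.05 to 1.08 in SOX9 sgRNA libraries and 0.936 to 0.940 in control libraries. With library totals alone the log2 fold change of ENSG00000257181 was -0.25 (edgeR adjusted p = 0.095). The median of all tested genes was then 0.19, against 0.01 otherwise, and relative to this median ENSG00000257181 stood at -0.44 under both scalings. A change of scaling moves all genes by nearly the same amount, so this likeness was bound to arise and does not bear on the call. With scaling factors of another kind, RLE, the call was kept (-0.43, edgeR adjusted p = 0.0011). It was also kept by DESeq2 (-0.43, DESeq2 adjusted p = 0.0047). The gene opposite GAPDH also fell, by 0.59 (SE 0.049, edgeR adjusted p = 7.79e-16). The part of library composition in these falls was not tested.

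ENSG00000257181 lies wholly within the last exon of MDM2. Its 785 bp of exon all overlap that exon, which runs from 69233054 to 69239214 over 6161 bp, and its span ends 2197 bp before the end of MDM2. In GENCODE 29, on GRCh38, the same 785 bp lie in the 3′ untranslated part of MDM2 and none in its coding part. Over the 6 libraries ENSG00000257181 had 22.7 times as many counts as MDM2, over 785 bp of exon against 8017 bp. Per kb it held 231 times the level of MDM2, above 99.9% of protein-coding genes. Whether its counts stem from a transcript of the minus strand or from MDM2 itself was not tested. Summing the counts of both genes gave a log2 fold change of -0.40 for MDM2 (edgeR adjusted p = 0.0020), against 0.21 from its own counts.

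The other gene opposite MDM2 is the carboxypeptidase M gene CPM, which encodes a membrane enzyme and meets MDM2 tail to tail over 133 bp. It had 126, 116 and 161 counts in SOX9 sgRNA libraries and 120, 139 and 102 in control libraries, or 153 ± 3.2 against 161 ± 14.9 CPM (SD, n = 3 each). The change on the log2 scale came to -0.07 (SE 0.16, edgeR adjusted p = 0.86, 95% interval -0.39 to 0.24), and the groups overlapped. Exons of the carboxypeptidase M gene and ENSG00000257181 do not overlap each other.

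**Figure D2:**
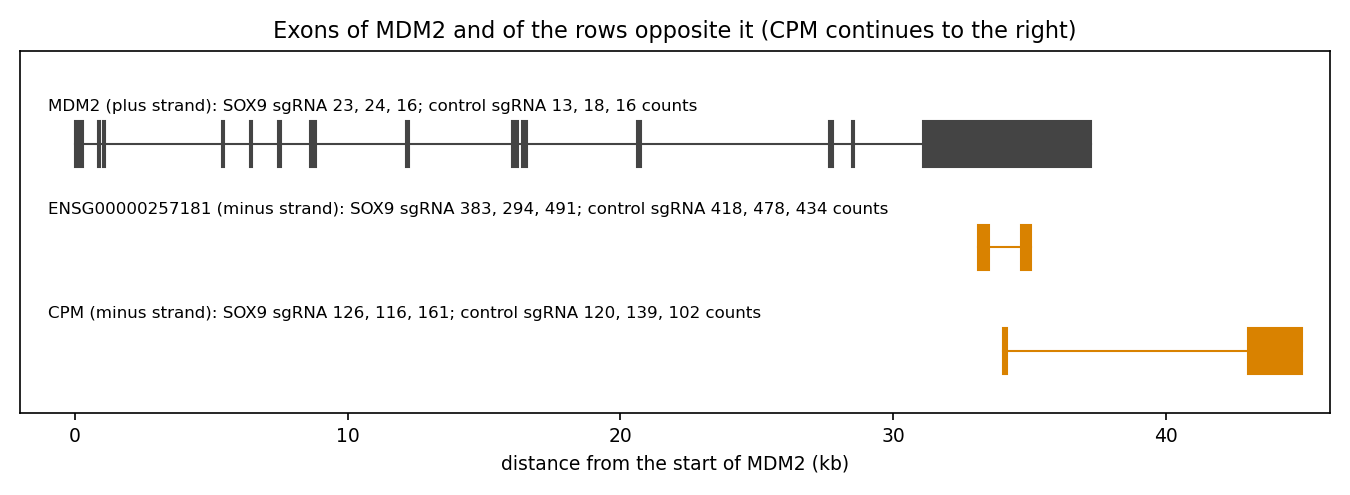
Exons (boxes) of MDM2 on the plus strand and of ENSG00000257181 and the carboxypeptidase M gene CPM on the minus strand, drawn to scale by distance in kb from the start of MDM2, with the raw counts of each library. Both exons of ENSG00000257181 lie under the last exon of MDM2, whose own counts of 13 to 24 stand beside 294 to 491 for ENSG00000257181.

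Opposite SESN1 lies ENSG00000271730 (chromosome 6, 109319685 to 109320328, plus strand), annotated as antisense RNA, with 363 of its 644 bp over a SESN1 exon. In GENCODE 29, 243 of these bases lie in coding sequence of SESN1. It had 24, 38 and 30 counts in SOX9 sgRNA libraries and 42, 37 and 49 in control libraries, or 35.8 ± 11.7 against 57.8 ± 11.8 CPM (SD, n = 3 each). SOX9 sgRNA library 2 lay above 1 control library, so the groups overlapped. The change of -0.70 on the log2 scale (SE 0.29) did not pass the threshold (edgeR adjusted p = 0.13, unadjusted p = 0.019). Per kb it held 101 times the level of SESN1.

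Opposite BBC3 lies the miRNA gene MIR3190, whose 80 bp sit within a BBC3 exon. It had 1, 0 and 1 counts in SOX9 sgRNA libraries and 0, 1 and 0 in control libraries, and total RNA libraries of this kind are not made to capture mature miRNAs. Its mature 3′ product, from RefSeq on GRCh38 with the seed (bases 2 to 8) in capitals, is shown since it is the one small RNA among the opposite genes.
hsa-miR-3190-3p, chr19:47226988-47227010, plus strand: uGUGGAAGguagacggccagaga
Per kb MIR3190 held 7.18 CPM on its 3 counts, beside 8.11 for BBC3. The shares below are of counts and not per length, and BBC3 has 3178 bp of exon against 80 bp for MIR3190. Own counts made up 97.7% of own and opposite counts at BBC3 (exact 95% interval 93.3 to 99.5), 7.56% at SESN1 (4.54 to 11.7) and 4.22% at MDM2 (3.48 to 5.06). Pooled over these 3 genes the own share was 11.2% ± 3.90 in SOX9 sgRNA libraries and 6.44% ± 0.971 in control libraries (SD, n = 3 each), beside 33.0% ± 0.227 and 32.3% ± 0.117 over 5384 protein-coding genes.

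FAS meets ACTA2, the smooth muscle actin gene, head to head over 431 bp of exon. ACTA2 had 0, 3 and 3 counts in SOX9 sgRNA libraries and none in control libraries, so the groups overlapped at 0. With the floor of 3 counts put in for the control group the ratio was 1.70. That value is not a lower bound, and the counts are too few to show a change. ACTA2 in turn has ACTA2-AS1 opposite it over 516 bp, ending 50.0 kb from the start of FAS and on the strand of FAS. ACTA2-AS1 had 38, 32 and 37 counts in SOX9 sgRNA libraries and 7, 6 and 3 in control libraries, or 41.1 ± 4.89 against 7.09 ± 2.56 CPM (SD, n = 3 each). It rose by 2.49 on the log2 scale (SE 0.42, edgeR adjusted p = 8.20e-06), and the groups were far apart. Whether these counts stem from ACTA2-AS1 or from ACTA2 itself rests on the strand setting and was not tested. The single FAS count leaves its own response unmeasured.

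**Figure D3:**
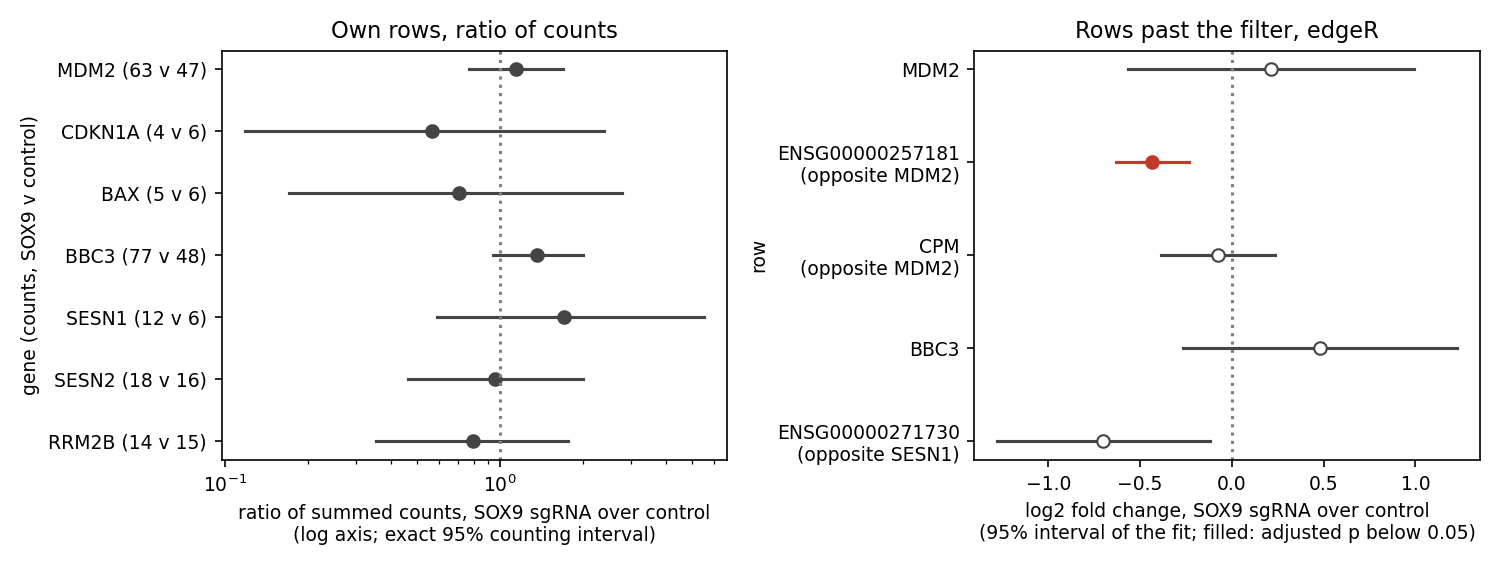
Left, ratio of summed own counts at equal library size, SOX9 sgRNA over control, on a log axis with exact 95% counting intervals, for the 7 p53 response genes with more than 3 counts in a group. Right, log2 fold changes of the 5 tested own and opposite genes with the 95% interval of the edgeR fit, filled where the adjusted p was below 0.05. Each interval on the left holds 1, and on the right ENSG00000257181 at -0.43 is the filled point.

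A wider set of 70 p53 targets, 69 of them in the tables, was read in the same way. Of 20 tested by own counts, 1 was higher and 0 lower, beside 2.99% higher and 6.02% lower over all genes tested, with a median log2 fold change of -0.01 against 0.01 for all. At an unadjusted p below 0.05, 3 were higher and 0 lower, beside 9.17% and 11.3% of all genes tested, and DESeq2 called 1 higher and 0 lower. Of 20 tested genes opposite them, 2 were lower and 0 higher, beside 9.42% and 3.75% of all genes opposite protein-coding genes, with a median of 0.11 against -0.01 for those. At an unadjusted p below 0.05 these were 4 lower and 1 higher, beside 15.2% and 10.5%, and DESeq2 called 1 lower and 0 higher. Opposite counts prevailed here too: of 23 targets with at least 10 own and opposite counts together, 18 had fewer own than opposite counts, beside 60.1% of 5384 protein-coding genes with an overlap.

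In the metabolism and repair list, the potassium and chloride cotransporter gene SLC12A4 was the 1 target called by own counts. It had 110, 89 and 95 counts in SOX9 sgRNA libraries and 46, 37 and 59 in control libraries, or 114 ± 20.1 against 64.4 ± 19.1 CPM (SD, n = 3 each). It rose by 0.82 (SE 0.22, edgeR adjusted p = 0.0070), and lost the call without SOX9 sgRNA library 1 (0.69, adjusted p = 0.081) or control library 2 (0.62, adjusted p = 0.098). IER5, an immediate early response gene, had a log2 fold change of 0.83 (adjusted p = 0.063), the glutaminase gene GLS2 0.74 (adjusted p = 0.11) and HSPA4L 0.59 (adjusted p = 0.39). Without control library 2 HSPA4L passed the threshold (1.39, edgeR adjusted p = 0.035), and without SOX9 sgRNA library 2 IER5 did (1.00, edgeR adjusted p = 0.040). For genes opposite this list, 0 of 9 were called by edgeR or DESeq2, and 1 was higher at an unadjusted p below 0.05. These were led by TSPAN18 opposite TP53I11, with a log2 fold change of 1.13 (adjusted p = 0.15), ANKRD42 opposite CCDC90B with 0.90, UTP15 opposite ANKRA2 with 0.42 and ENSG00000257202 opposite DRAM1 with -0.60.

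In the cell death list, 0 of 5 were called by own counts with edgeR or DESeq2, and 0 had an unadjusted p below 0.05. TP53I3 had a log2 fold change of 0.24, the death receptor gene TNFRSF10B -0.45, NINJ1 -0.63 and the survival gene BCL2L1 -0.39. Among 7 genes opposite this list, ENSG00000265474 opposite TRAF4, an adaptor gene of the TNF receptor family, fell. It had 118, 99 and 91 counts in SOX9 sgRNA libraries and 149, 143 and 110 in control libraries, or 120 ± 27.8 against 180 ± 20.5 CPM (SD, n = 3 each), a change of -0.60 on the log2 scale (SE 0.17, edgeR adjusted p = 0.012). A second gene opposite TRAF4, ENSG00000265840, had -0.93 (adjusted p = 0.094). TNFRSF10A-DT opposite TNFRSF10A had -0.47 and RHOBTB2 opposite TNFRSF10B 0.64, or 1.58 without control library 1. The call opposite TRAF4 was lost by DESeq2 (-0.59, adjusted p = 0.059) and with library totals (-0.42). Leaving out SOX9 sgRNA library 3 (-0.41) or control library 1 (-0.53) also ended it.

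In the cell cycle list, BTG1-DT opposite the antiproliferative gene BTG1 fell. It had 329, 414 and 493 counts in SOX9 sgRNA libraries and 490, 435 and 440 in control libraries, or 471 ± 71.3 against 613 ± 53.6 CPM (SD, n = 3 each), a change of -0.38 on the log2 scale (SE 0.10, edgeR adjusted p = 0.0068). Without SOX9 sgRNA library 1 (-0.27, adjusted p = 0.13), without control library 1 (-0.34, adjusted p = 0.069) and with library totals (-0.20) the call was lost. By own counts 0 of 3 were called with edgeR or DESeq2 and 0 had an unadjusted p below 0.05, with log2 fold changes of -0.22 for BTG1, -0.23 for the mitotic phosphatase gene CDC25C and -0.87 for the 14-3-3 sigma gene SFN. FAM53C opposite CDC25C had 0.20. In the feedback list 0 of 3 were called by either tool and 0 had an unadjusted p below 0.05, with 0.06 for RCHY1, -0.15 for COP1 and -0.19 for TP53INP1. Opposite them, THAP6 at RCHY1 had -0.39 (adjusted p = 0.13), ENSG00000268800 at CCNG1 had 0.11, and 0 of 2 were called by either tool, with 1 lower at an unadjusted p below 0.05.

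Of 8 tested genes of the p53 axis and the DNA damage kinases, 0 were called by edgeR or DESeq2, with 1 higher and 2 lower at an unadjusted p below 0.05. The log2 fold change was 0.71 for the damage kinase gene ATM (adjusted p = 0.21), -0.97 for the checkpoint kinase gene CHEK1 (adjusted p = 0.18), -0.38 for TP53BP1 (adjusted p = 0.17) and -0.40 for CHEK2 (adjusted p = 0.56). Opposite this list 0 of 3 were called by either tool and 0 had an unadjusted p below 0.05, with 0.08 for C11orf65 at ATM and -0.81 for EIF2AK1P1 at ATR.

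**Figure D4:**
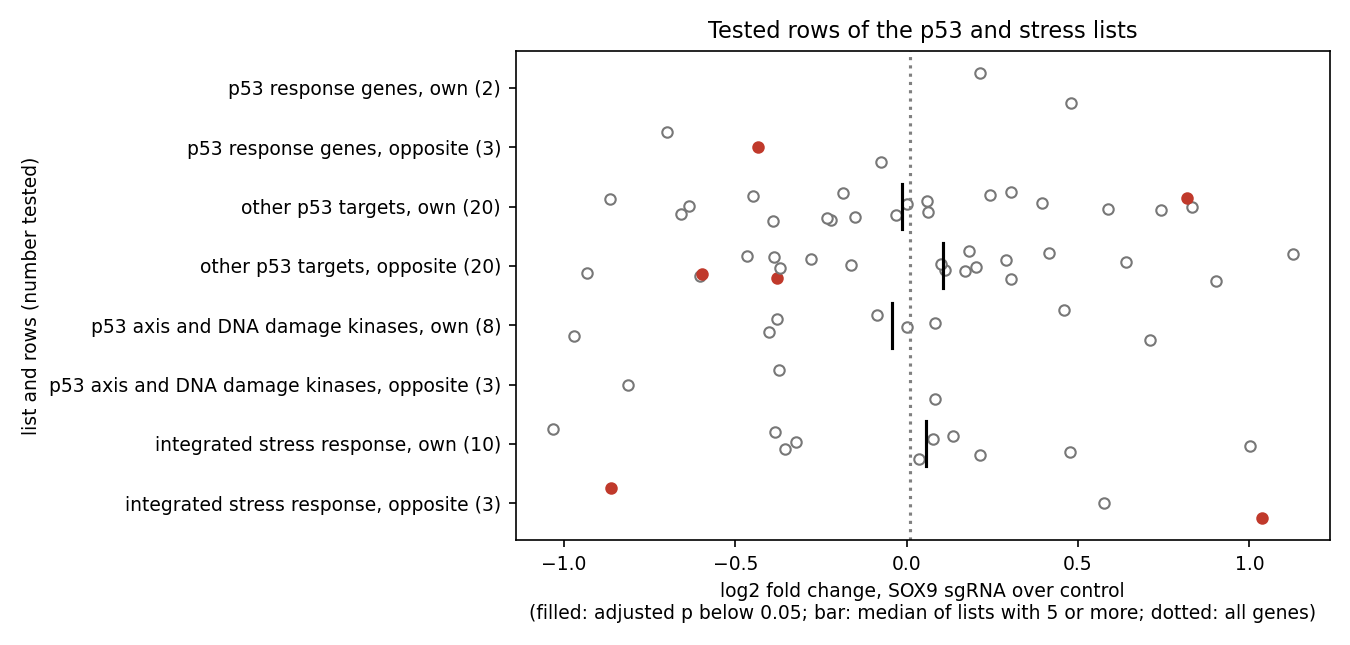
Log2 fold changes, SOX9 sgRNA over control, of every tested own or opposite gene of the p53 response genes, the other p53 targets, the p53 axis with the DNA damage kinases and the integrated stress response. Filled points have an edgeR adjusted p below 0.05, bars are medians of groups with at least 5 genes, and the dotted line at 0.01 is the median of all tested genes. Filled points are few and fall on both sides of the line.

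GDF15 and SESN2 are also targets of the integrated stress response, in which ATF4 drives amino acid and redox genes, and this list was read beside them. By own counts 0 of 10 tested genes were called by edgeR or DESeq2, and 0 had an unadjusted p below 0.05. NUPR1 had a log2 fold change of 1.00 (adjusted p = 0.32), VLDLR -1.03 (-1.80 without SOX9 sgRNA library 1 and -0.39 without library 3), CEBPB 0.48 and DDIT3, which encodes CHOP, -0.35. Opposite DDIT3, the methionyl-tRNA synthetase gene MARS1 had 113, 124 and 130 counts in SOX9 sgRNA libraries and 56, 50 and 47 in control libraries, and rose by 1.04 (SE 0.19, edgeR adjusted p = 5.96e-05). VLDLR-AS1 opposite VLDLR fell by 0.86 (SE 0.20, edgeR adjusted p = 0.0019), with 56, 38 and 94 counts against 93, 113 and 81. SLC7A11-AS1 opposite SLC7A11 had 0.58 (adjusted p = 0.079), and passed the threshold without SOX9 sgRNA library 1 (0.76, edgeR adjusted p = 0.023).

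Markers of the cell line and of other cells were read as a check. All 9 genes of the line's identity list had counts, but the hormone receptor genes ESR1 and PGR had only 12 and 26 over the 6 libraries and were not tested. Having counts is thus no mark of identity by itself. The keratin genes KRT8 and KRT18, opposite each other, had log2 fold changes of 0.11 and 0.33 and the epithelial adhesion gene EPCAM -0.68, none called. KRT19 fell by 0.74 (edgeR adjusted p = 1.83e-05) and the mesenchymal filament gene VIM by 1.61 (edgeR adjusted p = 8.26e-12), as did VIM-AS1 (-1.47) and ENSG00000234961 (-1.42) opposite VIM. The summed level of 9 markers of blood, endothelial and mesenchymal cells was 19.5 to 36.4 CPM in SOX9 sgRNA libraries and 17.8 to 23.0 in control libraries. CD3E, VWF and CDH5 were at 0 in all libraries.

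Across the 6 libraries, the genes whose scaled log2 level followed BBC3 most closely were SH2D3A (Pearson r = 0.994), CHCHD3 (0.992) and RELL2 (0.992). Those closest to ENSG00000257181 were SLC25A30-AS1 (0.988), PEG3 (0.988) and IPO4 (0.987). These were the highest among all tested genes, over 6 libraries that fall in 2 groups, and they are given as a description.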

How the data were processed

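Gene counts of 6 libraries were used, 3 per group as the sample titles give them. Per the file headers, the authors ran featureCounts with strand setting 1 on the exons of genes in Ensembl release 75 (GRCh37), letting a fragment count for every gene it overlaps; the deposited values are raw counts without normalization. Per the submitters' processing notes, STAR 2.7.10a and Subread 1.6.2 were used on GRCh37 (hg19). Per the labels' protocols, libraries were made with a stranded total RNA kit for very small inputs, which keeps strand.

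Exons of the tables were intersected across strands with bedtools 2.31.1. Symbols were found for 51452 of 57209 identifiers. Parts of genes came from GENCODE 29 and sequences from RefSeq, both on GRCh38 and never joined to GRCh37 coordinates. In R 4.3.3, edgeR 4.0.16 was run with filterByExpr, TMM scaling and the robust quasi-likelihood test over all genes, with Benjamini-Hochberg adjustment and a threshold of 0.05. Fold changes have SOX9 sgRNA on top. Scaled counts (CPM) divide by the totals of tested genes times the TMM factor. Counting intervals are exact and conditional on the summed counts (scipy 1.17.1). The fit was checked on simulated counts. Alternatives were DESeq2 1.42.0, other scalings and filters, a replicate block, summed strands and each library left out.

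The 9 genes and the other lists (124 entries, 122 found) were chosen with earlier results of these data known. Named genes are the 9, all genes opposite them, and up to 4 own and 4 opposite genes per list with the smallest adjusted p. Some listed genes are not reported here.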

Additional observations from a re-analysis of the deposited data

How the results depend on the processing

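Of 684 log2 fold changes of named genes recomputed under 13 settings, 654 kept their direction and their side of the threshold and 30 did not. Of 120 recomputed counts of calls, 107 stayed within 1.5 times the count and 13 did not. For all genes, 238 higher became 130 by DESeq2, 625 with library totals and 151 with no filter, and 479 lower became 249 with library totals. With library totals, 0 genes opposite the 9 were called, as were 0 opposite the other p53 targets, while 3 of those targets were higher by own counts (SLC12A4, IER5 at 1.02 and GLS2 at 0.93). DESeq2 called 1 gene lower opposite the other targets. Leaving out 1 library at a time gave 0 to 2 targets higher by own counts, and 0 to 2 genes lower opposite them. ENSG00000257181 ranged from -0.50 to -0.35 (edgeR adjusted p = 0.00083 to 0.027) and kept its call without each library.

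Direction changed for MDM2 when own and opposite counts were summed (-0.40), and with library totals for the carboxypeptidase M gene CPM (0.11) and COP1 (0.030). With 1 library left out, C11orf65 ranged from -0.31 to 0.88, COP1 from -0.50 to 0.0068, RCHY1 from -0.15 to 0.19, TP53I3 from -0.056 to 0.98 and KRT8 from -0.033 to 0.18. MDM2 own counts made up 4.22% of the summed counts, so the sum followed ENSG00000257181. With library totals the median log2 fold change of all tested genes was 0.19, against 0.01 in the main fit. The cause of the changes with 1 library left out was not tested.

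Same-numbered libraries did not deviate together (correlations of -0.0029, 0.019 and -0.011, beside -0.035 to 0.037 for other pairings). Such values cannot show whether same-numbered libraries were handled together. With a replicate block, 175 genes were higher and 399 lower, and ENSG00000257181 stood at -0.44 (edgeR adjusted p = 0.0047). Low own counts limit 7 of the 9 genes, with a sum of 105 over 6 libraries. The parts of depth and of the strand setting in this were not tested.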
